A study of Homo sapiens with 6 samples.

Results

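CTGF, CYR61 and ANKRD1 are genes that YAP switches on, and their mRNA is widely read as a measure of YAP activity. They were taken by symbol from a deposited table of 8529 genes, in which each of the 3 names stood in 1 row. They were selected on the contrast described here, because their levels were already known to be higher on the stiffer gel, so their differences between stiffness levels are given as descriptions with no test. The cells were SW480, an established line from a human colorectal adenocarcinoma, labelled as wild type (WT). They were kept in L-15 medium with serum and grown for 72 h in a CO2-free incubator on hydrogels of 2 kPa (soft) or 25 kPa (stiff), with 3 libraries at each stiffness and no other treatment. The wells were set up in triplicate at each stiffness, and no label says that they came from separate cultures, so the spread and the p-values below measure only the variation between these 6 libraries. The model is 1 tumour line grown without other cell types.

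YAP and its relative TAZ (WWTR1) are the co-activators at the end of the Hippo pathway. When the kinases MST1/2 (STK4, STK3) and LATS1/2 are active, YAP and TAZ are phosphorylated and held in the cytoplasm; when they are not, YAP and TAZ enter the nucleus, bind TEAD factors on DNA and activate target genes. Cells spread on a stiff matrix are known for nuclear YAP and TAZ, largely through tension in the actin cytoskeleton. CTGF (now CCN2) and CYR61 (now CCN1) encode secreted CCN proteins, which sit in the extracellular matrix and bind integrins and heparan sulphate proteoglycans. ANKRD1 (also called CARP) encodes an ankyrin repeat protein known best from the sarcomere and nucleus of striated muscle.

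The promoters of CTGF and ANKRD1 are shown because YAP reaches its targets through TEAD, which binds the sequence GGAATG. Of the 3 genes, these were the ones matched in the RefSeq promoter sequences of GRCh38.p14, which span 250 bases before to 50 bases after each start. Capitals mark GGAATG, both genes lie on the minus strand, and each sequence reads 5′ to 3′ in the direction of the gene. The first runs from base −250 to −2 of the CTGF start at chr6:131951374-131951622, the second from −250 to −190 of the ANKRD1 start at chr10:90921277-90921337, and the third from −138 to −113 of the same start at chr10:90921200-90921225.
CTGF promoter: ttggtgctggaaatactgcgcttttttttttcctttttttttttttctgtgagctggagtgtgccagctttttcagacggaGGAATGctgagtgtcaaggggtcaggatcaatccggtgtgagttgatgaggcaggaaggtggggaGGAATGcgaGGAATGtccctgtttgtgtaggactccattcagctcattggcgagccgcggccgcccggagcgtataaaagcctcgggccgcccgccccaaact
ANKRD1 promoter: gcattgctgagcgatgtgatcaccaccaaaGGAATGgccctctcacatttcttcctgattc
ANKRD1 second site: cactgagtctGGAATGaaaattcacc

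GGAATG stood 3 times in the CTGF window, at bases −169 to −164, −104 to −99 and −95 to −90 from the start, and 2 times in the ANKRD1 window, at −220 to −215 and −128 to −123. All 5 matches lay on the strand of the gene. Searched on both strands, 14.0% of the 27305 RefSeq promoters of 300 bases held GGAATG at least once, 1.37% held at least 2 copies and 0.146% at least 3. Of the 12 listed YAP and TAZ targets with a value in the table, 8 had a promoter sequence, and 3 of the 8 held GGAATG, with FOXF2, a forkhead factor, carrying 1 copy. The AP-1 motif TGANTCA, counted separately and free to share bases with GGAATG, stood in 7.76% of all promoters, in ANKRD1 once and in CTGF 0 times. The CArG box bound by SRF stood in 1.29% of promoters and in neither window. These matches describe letters in a window and show no binding in SW480 cells.

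In GENCODE on GRCh38, CYR61 (ENSG00000142871.16) lies on the plus strand of chromosome 1 from 85580761 to 85583962 and has 5 exons. CTGF (ENSG00000118523.5) lies on the minus strand of chromosome 6 from 131948176 to 131951373, also with 5 exons, and ANKRD1 (ENSG00000148677.6) on the minus strand of chromosome 10 from 90912096 to 90921276 with 9 exons. The first 428 bases of CTGF overlap AL133346.1, an antisense gene on the plus strand. No source used here says whether reads were counted by strand, so RNA of that antisense gene in this overlap could not be told apart from CTGF. The GENCODE start of ANKRD1 lies 189 bases upstream of the RefSeq start, so the first ANKRD1 sequence above lies before both starts and the second site lies inside the GENCODE transcript. The deposited table holds no coordinates.

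The authors gave each gene as FPKM, its sequenced fragments scaled by the length of the gene model and by the mapped reads of the library, so that levels can be compared between genes. The log2 changes below are differences between the group means of log2(FPKM + 1), 25 kPa minus 2 kPa, from limma fitted to all 8529 genes, a scale that understates the change of a low gene. Such values hold no read numbers, and none could be worked back from the spacing of low values. The paper gives a general sequencing depth and an average data size per specimen, but the reads behind each library are unknown. The FPKM summed to between 201030, in 2 kPa replicate 2, and 263028, in 25 kPa replicate 2, and the median gene lay between 2.23 and 2.83 FPKM. The genes richest in GC, set against an equal number of the poorest, stood at −0.17 and −0.23 log2 units in 25 kPa replicates 1 and 3 and at 0.08 to 0.10 in the other 4 libraries. Of 12 colorectal epithelial markers, 8 were in the table. They summed to 4481 to 4811 FPKM at 2 kPa and 3690 to 4862 at 25 kPa. Most of this was KRT18 and KRT19, and EPCAM was also high. KRT20 and CDX1, markers of differentiated intestinal cells, were at or below 0.24 FPKM, and CDX2 was at 0.07 to 0.79 FPKM. For 2 of the 8, KRT19 and CDX2, groups were apart and lower at 25 kPa, against 4.78% of all genes. Fibroblast markers (3 of 10 in the table) summed to 1.11 FPKM or less in every library, leukocyte markers (3 of 8) to between 2.39 and 5.47, of which most was LYZ, striated muscle markers (1 of 12, TNNI3) to between 6.65 and 9.84, and 0 of 7 endothelial markers were in the table. GAPDH, a glycolytic enzyme usually abundant, was listed at 0.32 to 3.35 FPKM, and which transcripts of a gene were counted is not given in the sources used here. The study's library protocol describes a gel step that selects small RNA, and the sources do not explain how FPKM of mRNA were obtained after it, so what share of an mRNA these values measure, for CTGF, CYR61 and ANKRD1 too, is unknown.

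CTGF was the lowest of the 3 genes. It was measured at 2.79, 5.73 and 1.81 FPKM in the 2 kPa replicates 1, 2 and 3, and at 15.7, 7.88 and 12.0 FPKM in the 25 kPa replicates. Every stiff library lay above every soft one, with 2 kPa replicate 2 and 25 kPa replicate 2 closest to each other. The means were 3.44 ± 2.04 FPKM at 2 kPa and 11.9 ± 3.93 FPKM at 25 kPa (SD, n = 3), 3.45 times apart. On the log2(FPKM + 1) scale the change was 1.58 (standard error 0.34), and on log2 FPKM without a pseudocount it was 1.89. Ranked by FPKM among all genes, CTGF lay between the 46.5th and the 80.8th percentile of its library. In bulk RNA a smaller share of cells with CTGF and less CTGF mRNA per cell cannot be told apart, and this holds for each gene below.

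CYR61 was measured at 7.77, 22.6 and 6.57 FPKM in the 2 kPa replicates and at 37.6, 24.5 and 28.9 FPKM in the 25 kPa replicates. The soft libraries were split, with replicate 2 at 3.44 times the level of replicate 3, while the stiff libraries differed by 1.53 times at most. The lowest stiff library stood at only 1.09 times the highest soft one. The means were 12.3 ± 8.91 FPKM at 2 kPa and 30.3 ± 6.67 FPKM at 25 kPa (SD, n = 3), 2.47 times apart, and the log2 change was 1.41 (standard error 0.38). After the libraries had been brought to the same FPKM sum, the groups overlapped, with 2 kPa replicate 2 at 26.2 FPKM and 25 kPa replicate 2 at 21.8 FPKM.

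ANKRD1 was the highest of the 3 and the most even. It was measured at 44.0, 58.9 and 50.7 FPKM in the 2 kPa replicates and at 128, 138 and 126 FPKM in the 25 kPa replicates. The groups were well apart, the lowest stiff library standing at 2.15 times the highest soft one, and at equal library sums the same libraries still stood at 122.6 and 68.4 FPKM. The coefficient of variation, the SD as a percentage of the mean, was 14.6% at 2 kPa and 4.83% at 25 kPa, against 59.2% and 33.1% for CTGF and 72.4% and 22.0% for CYR61. The mean was 2.56 times higher at 25 kPa, with a log2 change of 1.35 and a standard error of 0.13, smaller than those of CTGF and CYR61. ANKRD1 ranked between the 91.9th and the 96.7th percentile of genes in every library, in cells where TNNI3, a troponin of heart muscle, was the sole striated muscle marker in the table.

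**Figure D1:**
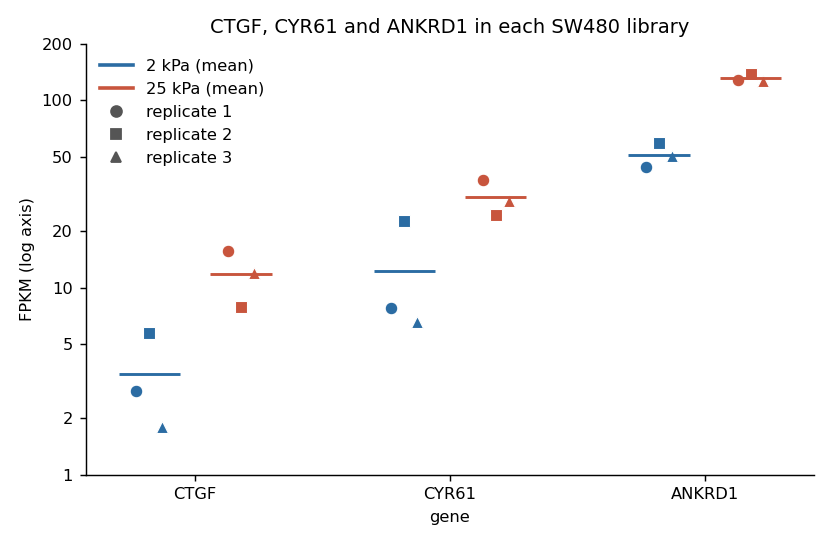
FPKM of CTGF, CYR61 and ANKRD1 (log axis) in each of the 6 SW480 libraries, with a marker for each replicate and a line at the mean of each stiffness group (blue 2 kPa, red 25 kPa, n = 3). The red points lie above the blue ones for each gene, closely so for CYR61 (24.5 against 22.6 FPKM) and widely for ANKRD1 (126 against 58.9 FPKM).

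For each of the 3 genes, then, the stiff libraries lay above the soft ones. The same pattern, groups that did not overlap with the stiff libraries higher, was found for 953 of the 8529 genes (11.2%), and the opposite one for 408 (4.78%). Nothing is read from 3 of 3 against that background, since the genes were chosen on this contrast. The log2 changes stayed positive in all 15 alternative settings, from 1.30 to 1.93 for CTGF, 1.10 to 1.92 for CYR61 and 1.22 to 1.45 for ANKRD1. For each of the 3 genes the highest of these values came from the fit without 2 kPa replicate 2. Since every stiff library lay above every soft one, leaving out a library or changing the pseudocount could not turn the sign. Removing the trend over GC content from each library gave 1.59, 1.41 and 1.27, and the transcripts of the 3 genes hold 51.5%, 50.3% and 43.3% GC against a median of 50.1% over genes. With a pseudocount of 0.1 the log2 change was 1.86 for CTGF and 1.36 for ANKRD1, so how far these lay apart depended on the pseudocount.

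How far the 3 genes moved together was read first from their levels within a library. Their order was the same in all 6 libraries, with ANKRD1 highest, CYR61 next and CTGF lowest. The lowest ANKRD1 value (44.0 FPKM) lay above the highest CYR61 value (37.6 FPKM). The place of ANKRD1 thus follows from its level and does not show that it moved with the others. The ratio of CYR61 to CTGF, the CCN pair, was 2.78, 3.94 and 3.63 in the 2 kPa replicates and 2.39, 3.11 and 2.41 in the 25 kPa replicates. It thus stayed between 2.39 and 3.94 while CTGF itself ranged from 1.81 to 15.7 FPKM. That range includes the rise with stiffness on which both genes were chosen. The ratio of ANKRD1 to CYR61 was less steady, at 5.67, 2.61 and 7.71 in the soft libraries and 3.41, 5.63 and 4.38 in the stiff ones. The ratio of ANKRD1 to CTGF ranged from 8.14, in 25 kPa replicate 1, to 28.0, in 2 kPa replicate 3. Each of the 3 ratios overlapped between the stiffness groups.

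Within a stiffness group, CTGF and CYR61 deviated alike in most libraries but not in all, and ANKRD1 deviated little. In 2 kPa replicate 2, CTGF stood 0.70 and CYR61 1.02 log2 units above the mean of their group, and ANKRD1 0.21. In 2 kPa replicate 3, CTGF stood at −0.56 and CYR61 at −0.62, while ANKRD1 was at −0.01. In 25 kPa replicate 1, CTGF and CYR61 were above their mean by 0.43 and 0.32 and ANKRD1 was at −0.03. In 25 kPa replicate 2 the pair was at −0.49 and −0.27 and ANKRD1 at 0.08. The remaining libraries differed: in 2 kPa replicate 1, ANKRD1, at −0.20, lay nearer to CTGF (−0.13) than CYR61 (−0.40) did. In 25 kPa replicate 3, CTGF was at 0.06 and CYR61 and ANKRD1 were each at −0.05. The deviations of CTGF and CYR61 had the same sign in 5 of 6 libraries, those of CYR61 and ANKRD1 in 4 and those of CTGF and ANKRD1 in 3. Deviations within a group were not used to choose the genes, but 3 libraries per group share the 2 kPa and 25 kPa means, so these counts are descriptions.

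**Figure D2:**
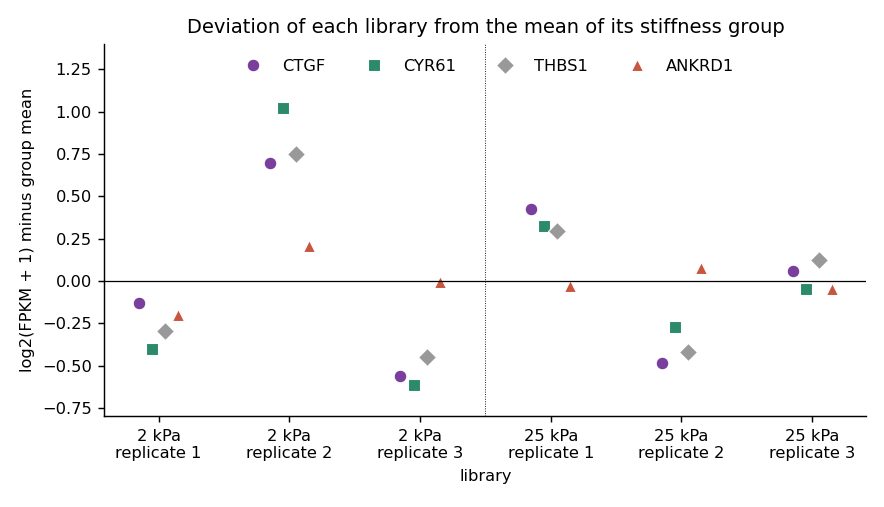
Deviation of log2(FPKM + 1) from the mean of its stiffness group (y axis) in each library (x axis) for CTGF, CYR61, ANKRD1 and THBS1. CTGF, CYR61 and THBS1 deviate alike in most libraries, highest in 2 kPa replicate 2 (0.70, 1.02 and 0.75). They are less alike in 2 kPa replicate 1 (−0.13, −0.40 and −0.30). ANKRD1 stays within 0.21 of 0.

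Likeness was measured as the root mean square difference between the log2(FPKM + 1) profiles of 2 genes over the 6 libraries, each centred on its own mean, where 0 is an identical profile. Among the 5807 other genes with a mean of at least 1 FPKM, the gene closest to CTGF was CYR61 and the gene closest to CYR61 was CTGF, with a difference of 0.22, where the median gene differed from CTGF by 0.89 and from CYR61 by 0.87. ANKRD1 ranked 11th from CTGF, at 0.44, and 14th from CYR61, at 0.47. Seen from ANKRD1, CTGF ranked 171st and CYR61 232nd. Since the change with stiffness is part of these profiles, the same measure was taken on the deviations within groups alone. There CTGF and CYR61 differed by 0.20, rank 50 from CYR61 and rank 238 from CTGF. ANKRD1 and CTGF differed by 0.43 and ANKRD1 and CYR61 by 0.47. The median gene differed from ANKRD1 by 0.23, so that CTGF and CYR61 were at ranks 5399 and 5541 of the 5807 from ANKRD1. Seen from CTGF, ANKRD1 was at rank 2484, where the median gene differed by 0.45. Seen from CYR61, it was at rank 1774, where the median gene differed by 0.54. The measure counts the size of deviations, and those of ANKRD1 were small. When each library was left out in turn, CTGF and CYR61 kept ranks of 1 to 4 from each other over the libraries left, and their within-group difference was between 0.14 and 0.22. The lowest was found when 2 kPa replicate 2 was left out. In that case CTGF stood at rank 675 within groups from CYR61, so that rank depended on this library, and CYR61 and ANKRD1 differed by 0.26.

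Of the 5 genes closest to each of the 3, beside each other, CTGF and CYR61 shared 1 and CTGF and ANKRD1 shared 1, MASTL. The gene shared by CTGF and CYR61 was THBS1, which encodes thrombospondin-1, another secreted matricellular protein, at 0.31 from CTGF and 0.26 from CYR61. THBS1 was measured at 5.17, 11.7 and 4.55 FPKM in the 2 kPa replicates and at 17.7, 10.4 and 15.6 FPKM in the 25 kPa replicates. Its groups overlapped through the same pair of libraries, replicate 2 at each stiffness, that came closest in CTGF and CYR61, and its log2 change was 1.00. The others closest to CTGF were CD24, a surface glycoprotein, NR2F2, a nuclear receptor, and MASTL, a mitotic kinase, at 0.35 to 0.37. The others closest to CYR61 were PDPR, a regulator of pyruvate dehydrogenase phosphatase, ACOT7, an acyl-CoA thioesterase, and TGM2, a transglutaminase that crosslinks proteins, at 0.32 to 0.37. On the soft gel NR2F2 was at 0.52 to 0.77 FPKM, below the pseudocount of 1. CD24, PDPR and TGM2 fell to 0.12, 0.50 and 0.28 FPKM in 2 kPa replicate 3. Likeness was not measured with another pseudocount. Closest to ANKRD1 were MASTL at 0.17, RND3, an atypical small GTPase, at 0.18, NCAPH, a condensin subunit, at 0.19, CXCR4, the receptor of CXCL12, at 0.21 and MSX1, a homeobox factor, at 0.22.

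RND3 was measured at 3.99, 5.03 and 4.48 FPKM in the 2 kPa replicates and at 11.7, 10.0 and 9.59 FPKM in the 25 kPa replicates (log2 change 1.06). CXCR4 was measured at 16.8, 20.1 and 22.5 FPKM on the soft gel and at 43.1, 44.6 and 35.5 FPKM on the stiff gel (log2 change 1.02). MASTL, in both the list of CTGF and that of ANKRD1, was at 0.46 FPKM or less in the soft libraries and at 1.65 to 2.48 FPKM in the stiff ones (log2 change 1.31). MSX1, the nearest of them to ANKRD1 in level, was at 37.4, 43.0 and 40.0 FPKM on the soft gel and at 138, 156 and 118 FPKM on the stiff gel (log2 change 1.74). In each of these genes, as in ANKRD1, every stiff library lay above every soft one. MASTL was low and uneven on the soft gel, where a pseudocount of 1 outweighs its FPKM. They were picked for a profile like that of ANKRD1, so their difference with stiffness follows from the way they were found and no test of it is given.

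**Figure D3:**
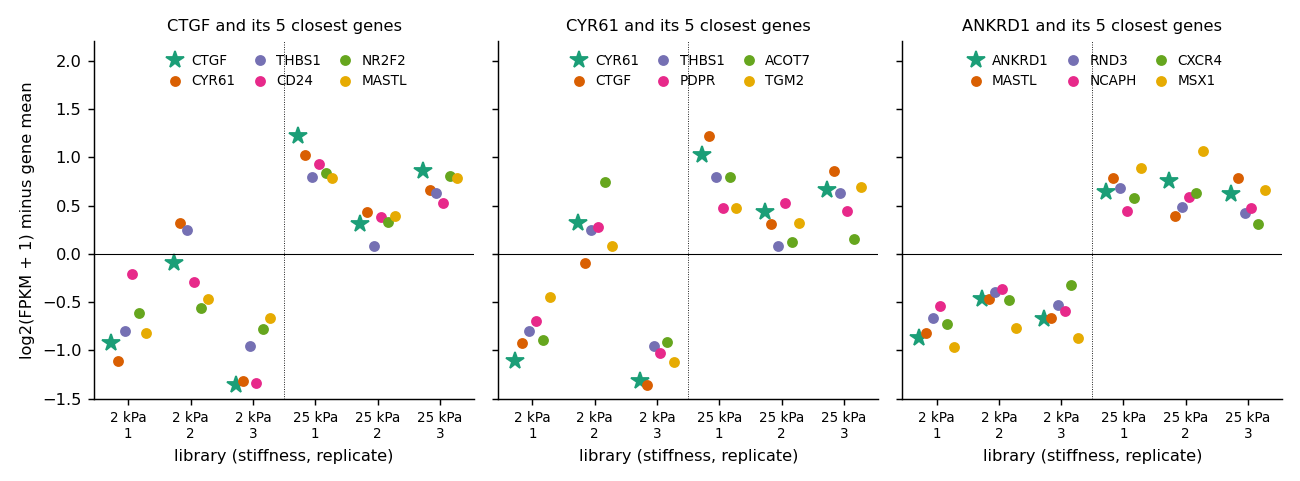
Centred log2(FPKM + 1) (y axis) of CTGF, CYR61 and ANKRD1 (stars) and of the 5 genes closest to each (dots) in the 6 libraries (x axis, stiffness and replicate). The CYR61 and CTGF stars range widely over the soft libraries, lowest in 2 kPa replicate 3, while the ANKRD1 star stays close to 1 level at each stiffness.

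The other YAP and TAZ targets were less far apart. Of 22 listed targets, 12 were in the table, and the 10 others (MYOF, LATS2, CRIM1, CCDC80, NT5E, DOCK5, PTPN14, NUAK2, TGFB2 and RBMS3) were not analysed here. Beside CTGF, CYR61 and ANKRD1, 9 remained, of which 5 had a higher and 4 a lower mean at 25 kPa, where 5081 of all 8529 genes (59.6%) had a higher mean. By limma, 10 of all 8529 genes (0.117%) passed an adjusted p under 0.05, 6 higher (0.0703%) and 4 lower (0.0469%), and 0 of these 9 targets did. At an unadjusted p under 0.05, 594 of all genes were higher (6.96%) and 272 lower (3.19%), and 2 of the 9 targets were higher and 0 lower. The groups did not overlap for the same number, 2 of 9, against 11.2% of all genes. The median log2 change of the 9 was 0.17 and that of all genes was 0.05. With CTGF, CYR61 and ANKRD1 included, the median was 0.39 over 12 genes, but 3 of these were chosen on the contrast. It was 0.12 without 2 kPa replicate 3 and 0.64 without 2 kPa replicate 2.

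AMOTL2 and F3 were the targets that did not overlap between groups. AMOTL2, an angiomotin that holds YAP in the cytoplasm and is itself a target, was measured at 16.6, 27.3 and 12.0 FPKM in the 2 kPa replicates and at 30.4, 30.7 and 28.2 FPKM in the 25 kPa replicates. As in CYR61, replicate 2 was the high library on the soft gel and came close to the stiff ones. The log2 change was 0.72 (standard error 0.25, limma adjusted p = 0.356). F3, which encodes tissue factor, the starter of coagulation, was measured at 4.39, 4.72 and 3.72 FPKM on the soft gel and at 7.19, 5.71 and 6.06 FPKM on the stiff gel, a log2 change of 0.47 (standard error 0.18, limma adjusted p = 0.426). At equal library sums both overlapped, as CYR61 did, and the targets with groups apart went from 5 of 12 to 2, CTGF and ANKRD1. With this scaling, the count over all 8529 genes went from 953 to 455 higher and from 408 to 664 lower. IGFBP3, a carrier of insulin-like growth factors, FOXF2, GADD45A, a growth-arrest gene, and FJX1 had lower means at 25 kPa, by log2 changes of −0.24 to −0.03, none of which passed.

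Of the factors that act on CTGF, CYR61 and ANKRD1, the measured ones, YAP1 and TEAD1 to TEAD4, overlapped between the stiffness groups. Over all genes, groups were apart and higher for 11.2% and apart and lower for 4.78%. Overlap was thus the common case and is not particular to these factors. YAP1 was measured at 0.84, 2.21 and 0.54 FPKM in the 2 kPa replicates and at 0.65, 1.22 and 2.12 FPKM in the 25 kPa replicates (log2 change 0.11, limma adjusted p = 0.949). TEAD1 was the highest TEAD, at 3.98, 7.64 and 2.54 FPKM on the soft gel and 8.15, 2.74 and 6.76 FPKM on the stiff gel, a log2 change of 0.27 (limma adjusted p = 0.896). In its soft libraries TEAD1 had the order of CTGF and CYR61, with replicate 2 highest and replicate 3 lowest, and in its stiff libraries too, with replicate 1 highest and replicate 2 lowest. TEAD3 had the same order, as had 664 of all 8529 genes (7.79%), so it is not particular to the TEAD genes. TEAD2, TEAD3 and TEAD4 also overlapped between groups, with log2 changes from −0.07 to 0.17. WWTR1, VGLL1 to VGLL4, LATS1, LATS2, STK3 and NF2 were not analysed here. YAP is governed mainly by its phosphorylation and its place in the cell, which mRNA does not show.

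Upstream of YAP, 8 of 16 listed core kinases and their partners were in the table, 4 with a higher and 4 with a lower mean. The groups overlapped for each of the 8. Over all genes, groups were apart and higher for 11.2% and apart and lower for 4.78%, so overlap was the common case. By limma 0 of them passed. At an unadjusted p under 0.05, where 6.96% of all genes were higher, 1 of the 8 was. It was SAV1, a scaffold of the MST kinases (log2 change 0.33, limma adjusted p = 0.459). STK4, the MST1 kinase, was at 0.71, 0.32 and 0.15 FPKM in the 2 kPa replicates and at 0.42, 0.47 and 0.91 FPKM in the 25 kPa replicates. Of 35 upstream regulators, 19 were in the table, 13 with a higher mean at 25 kPa, against the 59.6% of all genes, with a median log2 change of 0.18. By limma 0 of the 19 passed. At an unadjusted p under 0.05, 1 was higher and 1 lower, against 6.96% and 3.19% of all genes. The groups were apart and higher for 2 of the 19, AMOTL2 and FGFR1OP2, a partner of the STRIPAK phosphatase complex. They were apart and lower for 1, CRB3, a Crumbs polarity protein. The shares over all genes were 11.2% and 4.78%. CRB3 was measured at 7.24, 6.86 and 7.47 FPKM on the stiff gel against 9.85, 10.1 and 8.81 FPKM on the soft gel (log2 change −0.37, limma adjusted p = 0.426).

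The relatives of the 3 genes were low in these cells and did not share their pattern. Of the 6 CCN genes, 4 were in the table. NOV (CCN3) was measured at 0.45, 0.47 and 0.63 FPKM in the 2 kPa replicates and at 0.02, 0.14 and 0.36 FPKM in the 25 kPa replicates. It was lower in each stiff library than in any soft one, as were 4.78% of all genes (log2 change −0.38, limma adjusted p = 0.337). NOV thus stood on the other side of CTGF and CYR61, at levels where a pseudocount of 1 outweighs the value. WISP3 (CCN6) was at 0.74 to 1.63 FPKM on the soft gel and 0.77 to 1.47 on the stiff gel, with a log2 change of −0.06. Of the muscle ankyrin repeat family, ANKRD23 was measured beside ANKRD1, at 0.89, 1.17 and 0.74 FPKM on the soft gel and 1.11, 1.03 and 1.05 FPKM on the stiff gel, a log2 change of 0.10 (limma adjusted p = 0.904).

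Receptors to which CTGF and CYR61 bind were mostly lower in mean when all 6 libraries were used, without passing the test. Of 15 listed receptors and co-receptors, 9 were in the table, 2 with a higher and 7 with a lower mean at 25 kPa. Over all genes, 59.6% had a higher mean. The median log2 change of the 9 was −0.25. Without 2 kPa replicate 2, the receptors HSPG2, IGF2R and SDC4 turned to a higher mean at 25 kPa, so the count depended on that library. None of the 9 passed the adjusted threshold by limma. At an unadjusted p under 0.05, 2 of the 9, ITGA5 and ITGA6, were lower, against 3.19% of all genes. ITGA5, the alpha subunit of the fibronectin receptor, was measured at 16.2, 25.3 and 15.0 FPKM in the 2 kPa replicates and at 9.88, 12.4 and 12.8 FPKM in the 25 kPa replicates. Its groups were apart and lower, as were those of 4.78% of all genes (log2 change −0.61, limma adjusted p = 0.349). SDC4, the heparan sulphate co-receptor syndecan-4, was at 80.2 to 116 FPKM on the soft gel and 85.5 to 100.1 FPKM on the stiff gel.

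The next lists hold genes that answer to inputs CTGF, CYR61 and ANKRD1 are also known to answer to. MRTF and SRF act on actin genes, and of 25 listed genes 14 were in the table, 7 higher and 7 lower in mean. Their median log2 change was within 0.01 of 0, and 0 passed by limma. At an unadjusted p under 0.05, 1 was higher and 0 lower, against 6.96% and 3.19% of all genes. ACTA2, smooth muscle actin, had groups apart and higher (0.53, 1.66 and 1.33 against 2.51, 2.09 and 2.44 FPKM). ACTG1, a cytoplasmic actin, had groups apart and lower. That was 1 of the 14 in each direction, against 11.2% and 4.78% of all genes. Of the TGF-beta response genes, THBS1, the neighbour of CTGF and CYR61, was higher at an unadjusted p under 0.05. It did not pass the adjusted threshold (limma adjusted p = 0.333). BHLHE40, a repressor of transcription, had groups apart and lower, as had 4.78% of all genes (26.1, 42.7 and 24.3 against 18.1, 22.0 and 22.8 FPKM, limma adjusted p = 0.453).

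**Figure D4:**
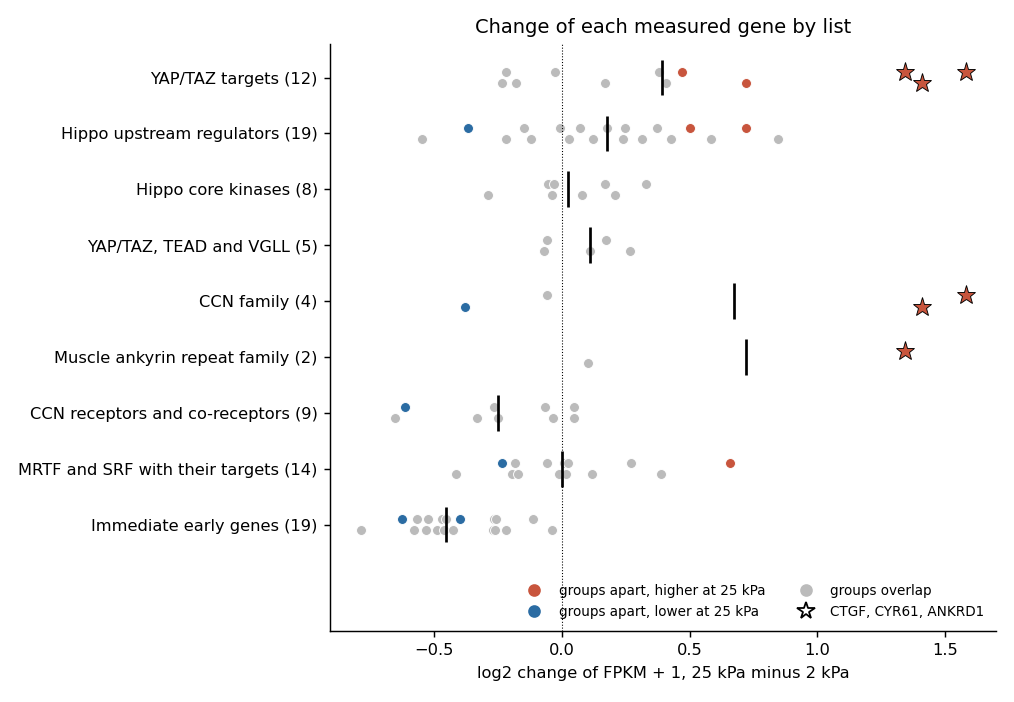
Log2 change of FPKM + 1 between 25 kPa and 2 kPa (x axis) of each gene of 9 lists in the table, by list (y axis, number of genes in brackets), with stars for CTGF, CYR61 and ANKRD1, a bar at the median of each list, and colours for groups that do not overlap. The stars lie at 1.35 to 1.58, and the other genes shown lie between −0.79 and 0.85.

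Immediate early genes are given because CTGF and CYR61 respond rapidly to serum and to handling of the cells, as FOS and EGR1 do. Of 22 listed, 19 were in the table, and 17 of the 19 were highest in 2 kPa replicate 2. Among the soft libraries, CTGF, CYR61 and ANKRD1 were also highest there. That library had the highest median FPKM (2.83) and the lowest FPKM sum (201030). The share of all genes that were highest in it was not counted. FOS, a subunit of AP-1, was measured at 38.2, 132.5 and 78.7 FPKM in the 2 kPa replicates and at 33.4, 79.5 and 60.7 FPKM in the 25 kPa replicates. EGR1, a zinc finger factor, was at 58.6 FPKM in 2 kPa replicate 2 and between 14.1 and 24.5 FPKM elsewhere. Among the stiff libraries FOS was highest in replicate 2, where CTGF and CYR61 were lowest. All 19 had a lower mean at 25 kPa, where 59.6% of all genes had a higher one, and their median log2 change was −0.45. None passed the adjusted threshold by limma. At an unadjusted p under 0.05, 3 of the 19 were lower, against 3.19% of all genes. IER3, a stress-induced survival gene, and NR4A1, an orphan nuclear receptor, had groups apart and lower, as had 4.78% of all genes. Without 2 kPa replicate 2 the median was −0.05 and 7 of the 19 had a higher mean at 25 kPa. Without that library the log2 changes of CTGF, CYR61 and ANKRD1 were 1.93, 1.92 and 1.45. The part of the immediate early genes, of the low FPKM sum or of any other property of 2 kPa replicate 2 in the levels of CTGF and CYR61 was not tested.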

How the data were processed

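RNA was sequenced from SW480 cells in 6 libraries, 3 at 2 kPa and 3 at 25 kPa, assigned by their labels. The authors normalised the reads to FPKM and deposited 1 value per gene symbol and library, without pooling and without read counts. Their library protocol describes the purification of small RNA, so the link between these values and whole mRNA is unclear. The read number of each library and the counting error are unknown. The submitters' processing notes name HISAT, StringTie, Bowtie2, RSEM and the build hg18, with no roles. The loci and sequences given here are from GRCh38, a different build, joined by symbol (GC content for 95.9% of genes). The authors' methods name DESeq2, which needs counts and was not run. From the deposited FPKM, log2(FPKM + 1) was fitted with limma 3.58.1 in R 4.3.3 (variance trend, two-sided, no replicate block) over all 8529 genes, with Benjamini-Hochberg adjustment and a threshold of 0.05. The fit was tested on simulated data. Python 3.11.15, numpy 2.4.6, pandas 2.3.3 and matplotlib 3.10.9 were used.

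CTGF, CYR61 and ANKRD1 and all gene lists were chosen with earlier results of these data known, and the lists were written from general knowledge of each pathway. The genes named are these 3, the YAP, TEAD and kinase genes in the table, the CCN and muscle ankyrin families, in each list the genes past the threshold and the 3 largest changes with groups apart at a mean of at least 1 FPKM, and the 5 closest profiles of each of the 3. The list members IGFBP3, GADD45A, FJX1, FOXF2, SDC4, ITGA6, FOS, EGR1 and SAV1, the marker genes and GAPDH were named after their values were seen. The TGF-beta response list is given in part and without its counts, since 1 result of it is left out. The alternatives were pseudocounts of 0.1 and 0.01, a mean of at least 1 FPKM, equal library sums, quantile normalisation, median centring, no variance trend, the replicate number as a block and each library left out. Removing the GC trend (lowess span 0.3), taking the 3 genes out of the target list, list medians, the likeness without each library and the order of libraries within a group were added after seeing the data.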

Additional observations from a re-analysis of the deposited data

How the results depend on the processing

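The log2 changes of CTGF, CYR61 and ANKRD1 kept their direction in 15 of 15 alternatives. Most of these could not have turned it, since in each of the 3 genes every stiff library lay above every soft one. Only the rescaling of libraries and the removal of the GC trend could have. The median of the immediate early genes stayed negative in 15 of 15, but it was −0.05 without 2 kPa replicate 2 against −0.45 as reported. The number of genes called over the whole table was less stable, 10 as reported, 17 with a pseudocount of 0.1, 15 with a pseudocount of 0.01, 15 of 5808 genes at a mean of at least 1 FPKM, 15 at equal library sums and 6 without a variance trend. It ranged from 3 to 11 when 1 library was left out, with 5 calls without 2 kPa replicate 1, 5, 3 and 6 without 25 kPa replicates 1, 2 and 3, and 11 without 2 kPa replicate 3. With the replicate number as a block, the paired fit called 3 genes. The deviations of libraries with the same number correlated across genes with r of 0.11, −0.27 and −0.12, so the numbers were not taken to pair the samples. The highest correlation was with the same number for 1 of the 3 numbers. The targets of YAP and TAZ with groups apart numbered 5 as reported, 2 at equal library sums and 2 without CTGF, CYR61 and ANKRD1, and their median log2 change ranged from 0.12 to 0.64 when 1 library was left out and was 0.61 with a pseudocount of 0.01. Of the genes at an unadjusted p under 0.05, 68.6% were higher at 25 kPa as deposited, 42.7% when library sums were made equal, 49.9% with median centring and 51.1% with quantile normalisation, so the balance of higher and lower genes rests on the scaling between libraries. The cause of these shifts was not tested. Without read numbers, no counting error can be given for low genes such as YAP1, NOV or STK4.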
